A study of Mus musculus with 7 samples.

Results

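The 6 Iroquois homeobox genes of the mouse, Irx1 to Irx6, were examined for open chromatin in the alpha, beta, and delta cells of the pancreatic islet. A peak belonged to a gene when its interval overlapped the gene body, as given by GENCODE for the mm10 genome, or the 50 kb on either side of it. Across the 7 peak lists 257 of 1182252 distinct intervals met this rule, and no interval fell in the windows of 2 genes because the windows do not overlap. The rule uses position alone, so no measured value decided which peaks were taken.

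Iroquois proteins are transcription factors of the TALE superclass, in which the DNA-binding homeodomain carries 3 extra residues between its first helices. Mammals have 2 Iroquois clusters of 3 genes each, one with Irx1, Irx2, and Irx4 and one with Irx3, Irx5, and Irx6, and the genes are spaced far apart within long stretches of noncoding DNA. They are known as patterning genes of the nervous system, heart, limb, and kidney, and in the islet Irx1 and Irx2 are known as alpha cell genes. ATAC-Seq marks open chromatin with the Tn5 transposase, which cuts and tags DNA where it is not wrapped tightly.

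The cells came from healthy mIns1-H2b-mCherry x Rosa-LSL-YFP mice that also carried either Gcg-Cre or Sst-Cre, so that mice of each cross were triple transgenic. The Ins1 promoter drives H2b-mCherry in beta cells, and Cre driven by the glucagon or the somatostatin promoter switches on YFP in alpha or in delta cells. Mice were pooled by sex, each sample held a median of 20000 sorted cells, single-end reads of 50 bp were taken from fragments that averaged 450 bp, and no age was given for any group. There were 2 alpha, 3 beta, and 2 delta libraries, labelled as biological replicates, and p-values measure the spread between these pools only. By the study's methods several cell types were sorted from shared mice, the labels do not say which libraries have mice in common, and the permutation tests below treat the 7 libraries as independent. In a sorted pool, the share of cells that are open at a site and the degree to which each cell is open cannot be told apart.

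Several features of the lists bear on every value below. The 3 beta lists carry the name of another cell type in their deposited names, and the labels were used here, so every beta value rests on the labels. The lists held between 75860 and 158066 distinct peaks, except beta 1 with 518503, and between 25903 and 52057 of these reached a -log10 q of 2, which is 29.8% to 54.9% of a list but 5.0% in beta 1. According to the list names, both alpha libraries and beta 1 were sequenced in one lane and the 4 other libraries in another, so that a difference between alpha and delta cells cannot be told apart from the lane. Read depth is not held in a peak list, so no limit of detection is given for an absent peak. In the study's sample table the samples with the fewest unique reads are beta samples, but a delta sample has fewer than some beta samples. A further beta sample of low quality, which the study removed, has the most. The part of depth in the lower beta counts was not tested. The labels were checked against marker genes by a TSS peak, here a peak that comes within 1 kb of the annotated start. Gcg had one in both alpha libraries and delta 2 and in no beta library, Ins1 had one in all 7, Ins2 only in beta 3, and Sst in beta 1 and both delta libraries. Counted over the marker lists, 6, 4, and 5 of 6 alpha markers had a TSS peak in at least 2 alpha, beta, and delta libraries, as did 5, 5, and 5 of 8 beta markers and 4, 1, and 5 of 5 delta markers. By these starts the beta list thus did not set the beta libraries apart. A TSS peak at most of the alpha and delta markers was found in both of these cell types. A single annotated start was used per gene, and Irx2 is itself in the alpha list. Counted at any transcript start, Ins2, Slc2a2, and G6pc2 had a peak in 3, 7, and 6 libraries. At the start used, Slc2a2 and G6pc2 had no peak in any library, so the beta marker counts depend on the start chosen. Among markers of other cells, no endothelial or immune gene and neither Ppy nor Ghrl had a TSS peak in 2 libraries of a cell type. In each cell type 1 of 5 acinar and 1 of 4 duct genes did, and 2 of 3 mesenchymal genes did in alpha cells and 1 in delta cells.

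The sequences below are the reference DNA under the open regions that the results turn on. Each is the plus strand of GRCm38.p6, the same build as mm10, for up to 300 bases centred on the summit of the strongest peak of the region, shortened where annotated UTR bases were left out. Capitals mark CpG dinucleotides, the sites of vertebrate DNA methylation that cluster at many promoters. The genes lie at chr13:71957921-71963723 (Irx1, minus strand), chr13:72628820-72634198 (Irx2, plus), chr13:73260479-73269608 (Irx4, plus), chr8:91798525-91802067 (Irx3, minus), chr8:92357625-92376286 (Irx5, plus), and chr8:92674288-92680956 (Irx6, plus). The first group of sequences lies at the starts of Irx1 and Irx2.
Irx1 start region, chr13:71963724-71963984: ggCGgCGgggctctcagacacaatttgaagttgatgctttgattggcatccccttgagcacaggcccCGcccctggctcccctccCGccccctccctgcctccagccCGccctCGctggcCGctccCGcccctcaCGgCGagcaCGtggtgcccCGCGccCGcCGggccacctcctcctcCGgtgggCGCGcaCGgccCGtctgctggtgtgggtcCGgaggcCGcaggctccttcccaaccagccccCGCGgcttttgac
Irx1 upstream region, chr13:71964423-71964722: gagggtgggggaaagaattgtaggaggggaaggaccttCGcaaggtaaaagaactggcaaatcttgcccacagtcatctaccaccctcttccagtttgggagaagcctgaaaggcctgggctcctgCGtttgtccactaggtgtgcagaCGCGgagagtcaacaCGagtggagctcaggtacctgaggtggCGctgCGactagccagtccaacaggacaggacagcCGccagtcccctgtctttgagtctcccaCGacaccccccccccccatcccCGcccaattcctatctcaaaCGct
Irx2 start region, chr13:72628529-72628819: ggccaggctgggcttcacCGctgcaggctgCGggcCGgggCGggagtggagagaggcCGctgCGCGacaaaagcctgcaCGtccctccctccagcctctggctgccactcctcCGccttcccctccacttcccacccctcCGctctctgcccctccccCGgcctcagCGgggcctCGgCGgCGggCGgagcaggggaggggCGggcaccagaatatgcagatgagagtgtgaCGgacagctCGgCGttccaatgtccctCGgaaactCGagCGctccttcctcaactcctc
The second group lies away from these starts on chromosome 13 and holds the regions that were open in alpha cells, in several cell types, or in all libraries.
Irx1 downstream region at 12.1 kb, chr13:71951519-71951818: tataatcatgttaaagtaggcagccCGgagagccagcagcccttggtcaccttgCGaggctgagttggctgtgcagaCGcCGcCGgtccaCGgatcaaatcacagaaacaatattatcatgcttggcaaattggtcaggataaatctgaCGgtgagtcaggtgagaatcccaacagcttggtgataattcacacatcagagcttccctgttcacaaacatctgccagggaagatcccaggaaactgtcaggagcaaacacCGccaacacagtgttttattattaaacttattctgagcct
Irx1 downstream region at 17.3 kb, chr13:71946263-71946562: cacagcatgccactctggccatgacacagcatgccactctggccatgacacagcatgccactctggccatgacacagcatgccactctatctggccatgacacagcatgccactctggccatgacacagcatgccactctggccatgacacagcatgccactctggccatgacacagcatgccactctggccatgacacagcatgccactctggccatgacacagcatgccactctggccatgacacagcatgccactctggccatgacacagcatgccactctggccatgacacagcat
Irx2 downstream region, chr13:72639618-72639917: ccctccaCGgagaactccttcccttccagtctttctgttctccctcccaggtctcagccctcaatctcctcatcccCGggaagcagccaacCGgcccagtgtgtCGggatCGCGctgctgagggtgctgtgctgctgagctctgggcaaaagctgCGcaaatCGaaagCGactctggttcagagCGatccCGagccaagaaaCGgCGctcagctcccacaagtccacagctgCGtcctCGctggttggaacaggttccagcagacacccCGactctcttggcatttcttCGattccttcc
Irx4 upstream region, chr13:73239349-73239648: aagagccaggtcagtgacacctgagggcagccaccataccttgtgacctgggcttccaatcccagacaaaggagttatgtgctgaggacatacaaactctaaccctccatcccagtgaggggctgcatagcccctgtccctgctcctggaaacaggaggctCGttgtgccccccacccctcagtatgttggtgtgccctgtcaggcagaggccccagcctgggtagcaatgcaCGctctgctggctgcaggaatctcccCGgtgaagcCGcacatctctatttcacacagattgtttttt
The last sequence is on chromosome 8 and belongs to the one region of that cluster that was open in all libraries.
Irx5 upstream region, chr8:92356070-92356369: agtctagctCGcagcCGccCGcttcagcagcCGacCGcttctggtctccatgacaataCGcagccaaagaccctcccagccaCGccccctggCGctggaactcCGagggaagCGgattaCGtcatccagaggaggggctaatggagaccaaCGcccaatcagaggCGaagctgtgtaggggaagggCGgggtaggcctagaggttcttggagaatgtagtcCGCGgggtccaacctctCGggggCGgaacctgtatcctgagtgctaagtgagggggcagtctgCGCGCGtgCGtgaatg
The start regions of Irx1 and Irx2 hold 24 CpG in 261 bases and 23 CpG in 291 bases, and the Irx5 upstream region holds 22 in 300. The Irx1 region at 17.3 kb holds none. It is a tandem repeat, and 92.8% of its bases equal the base 24 positions further on, against 30.0% to 41.0% at the best shift of 5 to 60 bases in the 26 other regions. The effect of the repeat on the placement of 50 bp reads was not tested.

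In alpha and delta cells most of the peaks with a -log10 q of 2 or more in the 6 windows lay on chromosome 13. The lists held 37 and 36 peaks in the 6 windows for the alpha libraries, 77, 13, and 33 for beta, and 45 and 23 for delta. Because the lists reach into weak peaks to a different extent, peaks with a -log10 q of 2 or more were counted as well, and these numbered 14 and 13 in alpha, 4, 5, and 7 in beta, and 10 and 8 in delta. Both alpha libraries had more of them than either delta library, and both delta libraries had more than any beta library. The whole lists had the same order at this threshold. They held 52057 and 49047 such peaks in alpha, 47042 and 41683 in delta, and 25903, 32047, and 38058 in beta. Of the 61 peaks at this threshold 46 lay in the chromosome 13 windows, with 11 and 10 in alpha, 2, 3, and 4 in beta, and 9 and 7 in delta. The chromosome 8 windows held 3 and 3, then 2, 2, and 3, and then 1 and 1 in the same order.

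To compare the cell types on a common scale, the peaks of a window with a -log10 q of 2 or more were expressed per 10000 such peaks of the list, termed window density. Every protein-coding gene was tested by an exact permutation test without direction over the 210 assignments of the 7 libraries, with Benjamini-Hochberg adjustment over 21911 genes. No gene reached an adjusted p of 0.05, the smallest adjusted p was 0.483, and 1999 genes (9.12%) had an unadjusted p of at most 0.05. Irx2 was the single Irx gene among them. The smallest p that this test can give is 0.00952, so adjustment can be passed only where a large share of all genes come near it.

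Irx1, a factor of the chromosome 13 cluster, had a window density of 0.96 and 0.816 in alpha, 0, 0.312, and 0.263 in beta, and 0.638 and 0.24 in delta. Both alpha values lay above all others, as they did for 7.37% of all genes, while the beta and delta values overlapped. The means were 0.888 ± 0.102 (SD, n = 2) in alpha, 0.192 ± 0.168 (SD, n = 3) in beta, and 0.439 ± 0.281 (SD, n = 2) in delta, with an exact permutation p of 0.0762 and an adjusted p of 0.571.

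Irx2, its neighbour in the cluster, had a window density of 0.384 and 0.612 in alpha, 0, 0.312, and 0.263 in beta, and 0.638 and 0.72 in delta. The delta libraries were highest and the beta libraries lowest, with no overlap between the cell types, and the share of all genes with this order was not counted. Alpha 2 and both delta libraries held 3 peaks each, so the order among them rests on list size alone. The means were 0.498 ± 0.161 (SD, n = 2), 0.192 ± 0.168 (SD, n = 3), and 0.679 ± 0.058 (SD, n = 2), with an exact permutation p of 0.0381 and an adjusted p of 0.502. These densities rest on at most 3 peaks per library, and the unadjusted p was 0.562 when every deposited peak was counted.

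Irx4, the third gene of the cluster and best known from the cardiac ventricle, had densities of 0.768 and 0.612 in alpha, 0.772, 0.312, and 0.526 in beta, and 0.638 and 0.72 in delta. The cell types overlapped, with means of 0.69 ± 0.111 (SD, n = 2), 0.537 ± 0.23 (SD, n = 3), and 0.679 ± 0.058 (SD, n = 2) and an exact permutation p of 0.581.

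On chromosome 8 Irx3 had 0.192 and 0 in alpha, 0.386, 0.312, and 0.263 in beta, and 0 in both delta libraries (exact permutation p = 0.0571, adjusted p = 0.537). The 3 beta values lay above all others, but each stands for a single peak, and the 3 peaks lay at 3 different places. Irx5 had 0.384 and 0.408 in alpha, 0.386, 0.312, and 0.526 in beta, and 0.213 and 0.24 in delta (exact permutation p = 0.114, adjusted p = 0.575). Both delta values lay below those of alpha and beta cells. For neither Irx3 nor Irx5 was the share of all genes with the same order counted. Beta 1, beta 2, and both delta libraries held 1 peak each, in the same region, so list size alone sets their densities apart. The Irx6 window held no peak at this threshold in any library, as did the windows of up to 20.7% of all genes in a given library. The genome-wide median was between 0.624 and 0.85 in the 7 libraries.

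The windows are between 104 and 119 kb long, so the genes were ordered by mean density per 100 kb of window. In alpha cells Irx1 led at 0.839, followed by Irx4 (0.632), Irx2 (0.473), Irx5 (0.334), Irx3 (0.0927), and Irx6. The library values of Irx4 and Irx2 and those of Irx2 and Irx5 met or overlapped before division by length, so these neighbours did not differ beyond their spread. In beta cells Irx4 stood at 0.492, Irx5 at 0.344, and Irx3 at 0.309, with equal densities of Irx4 and Irx5 in beta 2 and beta 3 before division by length, so that the lead of Irx4 rests on beta 1, and Irx1 and Irx2 were level at 0.181 and 0.182. In delta cells Irx2 (0.644) and Irx4 (0.622) were level, Irx1 stood at 0.415 and Irx5 at 0.19, and Irx3 and Irx6 had no peak at the threshold.

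**Figure D1:**
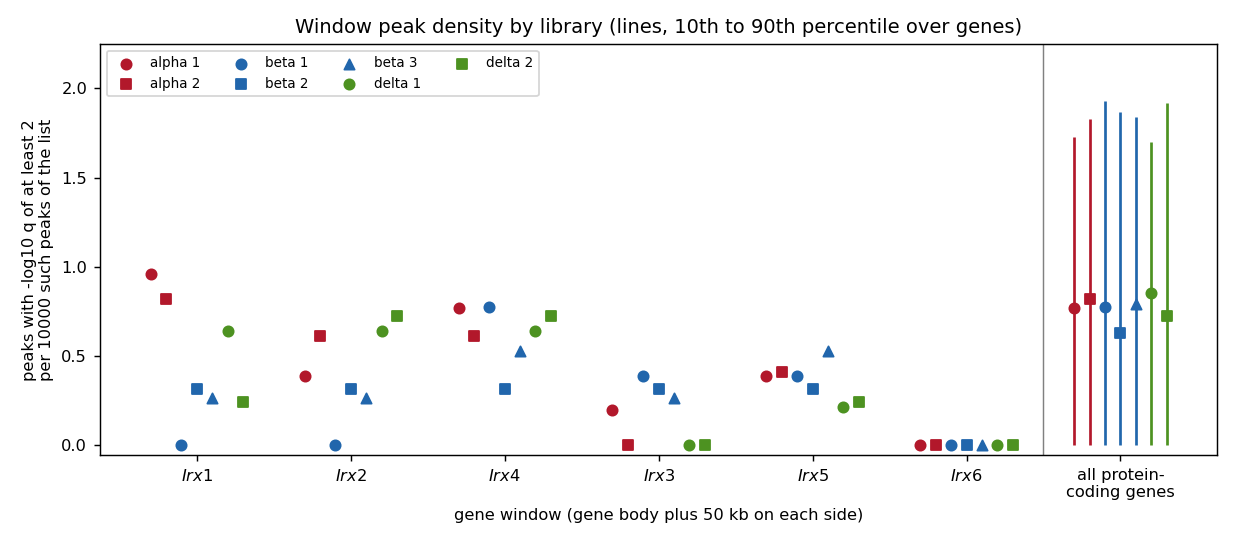
Window density of each Irx gene, as peaks with a -log10 q of 2 or more per 10000 such peaks of the list, with 1 point per library in red for alpha, blue for beta, and green for delta, and, at the right, the median (point) and the 10th to 90th percentile (line) over all protein-coding genes. The alpha points of Irx1 at 0.96 and 0.816 lie at or above the genome-wide medians of 0.768 and 0.816, and all points of Irx3, Irx5, and Irx6 lie below the medians of their libraries.

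Genes with the most similar window density over the 7 libraries were sought for the 5 genes with peaks at the threshold in at least 4 libraries. Adamts18, an extracellular protease gene, had the same densities as Irx1 in every library (r = 1.0, n = 7 libraries), and Pnmt, the gene of the enzyme that forms adrenaline, followed at r = 0.983. Rbm5, an RNA-binding protein gene, had the same densities as Irx2, and Etfrf1 the same as Irx4. Such identity arises with few peaks per window, the points share list size and depth, and between 1 and 6 genes of 21402 had an r of at least 0.99 with a given Irx gene.

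Peaks were next merged into regions across libraries, and a region found in at least 2 of the 7 libraries was kept. The windows held 190 merged regions, of which 163 came from a single library, 61 of them from beta 1, and 27 were kept, of 133698 kept genome-wide. Irx1, Irx2, and Irx4 had 6 each, Irx3 had 5, Irx6 had 3, and Irx5 had 1. Of the 27 regions 8 lay within 1 kb of an annotated transcript start, 16 were intergenic, 2 were intronic, and 1 was exonic. They were richer in C and G than regions at large, with a median GC content of 56.7% against 47.0% and a median of 8 CpG against 3 in 300 bases.

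Regions were compared by percentile, the rank of a region's strongest peak by -log10 p as a percentage of its list, with 0 where no peak was called. Tied peaks took the mean of their ranks, so a tied peak reached or exceeded more of its list than the percentile shows. Because beta 1 is dominated by weak peaks, a percentile of 90.9 in that list stands for a -log10 q of only 1.1. The -log10 q and the fold enrichment, the MACS2 ratio of summit signal over local background, are therefore given with it. None of the 27 regions had an unadjusted p of at most 0.05 in the exact permutation test of the percentiles, compared with 3.99% of all regions, and no region in the genome passed adjustment (smallest adjusted p = 0.845). A region found in the 2 alpha libraries alone cannot pass in this test, because 20 of the 210 assignments keep that pair together and the p is then 0.0952.

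Both alpha libraries ranked above every other library in 5 of the 27 regions, compared with 5.53% of all regions, a count that was added after the data were seen. These were the Irx1 start region, the region 850 bases upstream of Irx1, the Irx2 start region, a region 9.04 kb upstream of Irx4, and a region 47.5 kb downstream of the start of Irx6. No region ranked highest in all beta libraries, compared with 2.59% of all regions, and none in both delta libraries, compared with 4.5%. The count was 8 without beta 1, a setting for which the share of all regions was not counted. In these 5 regions beta 1 held a percentile of at most 48.1, which at the Irx4 region is the mean rank of many tied weak peaks. Another ranking of ties was not tested, and both alpha libraries shared their lane with beta 1.

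**Figure D2:**
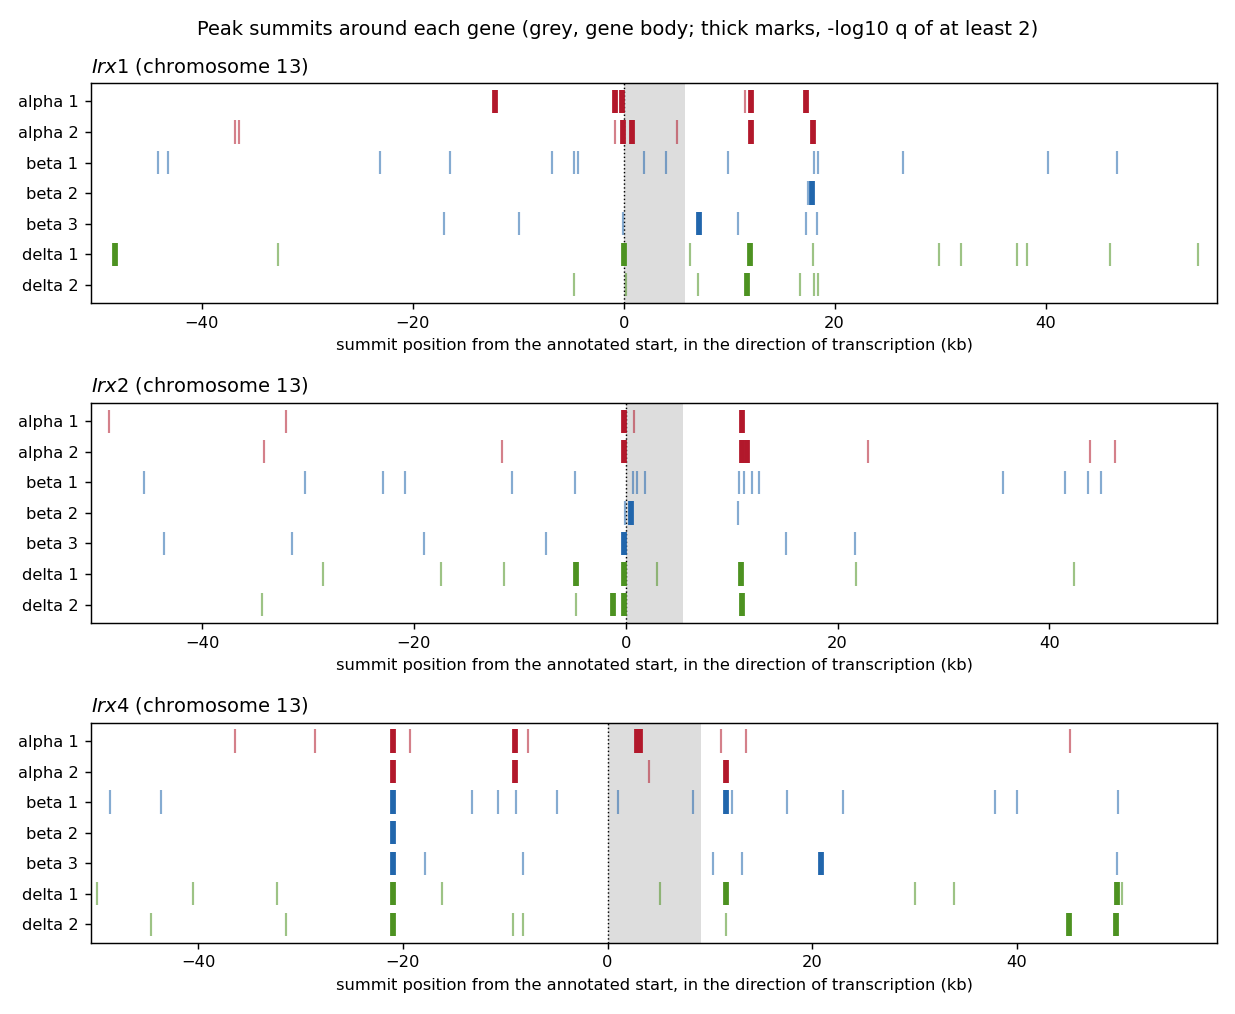
Position of peak summits from the annotated start of Irx1, Irx2, and Irx4 in kb, in the direction of transcription, with 1 row per library (red alpha, blue beta, green delta), the gene body in grey, and thick marks for a -log10 q of 2 or more. Thick marks stand in all 7 rows 20980 bases upstream of Irx4 and in 6 rows at the start of Irx2, while thick marks at the start of Irx1 are found in both alpha rows and delta 1.

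At the start of Irx1, the region chr13:71963115-71964039 spans the annotated start and part of an exon. It reached percentiles of 93.3 and 80.3 in alpha, 45.3 in beta 3, and 72.4 and 19.7 in delta, with no peak in beta 1 and beta 2. The fold enrichment was 8.57 and 5.06 in alpha, 3.21 in beta 3, and 4.12 and 3.42 in delta. The -log10 q was 15.2 and 6.16 in alpha, 1.43 in beta 3, and 2.79 and 1.65 in delta. Both alpha libraries were highest on each of the 3 measures. Both delta libraries lay above beta 3 by fold enrichment and -log10 q but on either side of it by percentile (exact permutation p of the percentiles = 0.105, adjusted p = 0.864).

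A further region 850 bases upstream of Irx1, chr13:71964438-71964730, was found in both alpha libraries alone. Its percentiles were 77.2 and 55.7, its -log10 q 3.86 and 1.95, and its fold enrichment 4.35 and 3.29. It was the one region in the 6 windows that was present in 2 libraries of alpha cells and absent from both other cell types.

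Beyond the 3' end of Irx1, in an intron of the noncoding gene Gm40999, the region at 12.1 kb (chr13:71951482-71951851) had percentiles of 70.3 and 77.9 in alpha and 71.4 in delta 1 and no peak in any beta library. The -log10 q was 2.54, 5.37, and 2.48. Delta 2 lacked a peak in the region itself but had one close by at chr13:71951913-71952164, with a percentile of 52.0 and a -log10 q of 3.14. Neither interval had a peak in a beta library, and the second had a peak in delta 2 alone.

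The tandem repeat at 17.3 kb (chr13:71945139-71946598) was open in all 7 libraries, with fold enrichments of 6.6 and 6.21 in alpha, 2.70, 3.91, and 3.12 in beta, and 3.42 and 3.23 in delta. Both alpha values lay above the rest by this measure, and the -log10 q was 10.5 and 10.3 in alpha against 1.1 to 2.29 elsewhere. By percentile beta 1 was highest at 90.9, with 90.1 and 86.8 in alpha, and the exact permutation p was 0.219. The remaining 2 regions of the window had a peak in 1 beta library and delta 2 each.

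Irx2 had the most open start region of the 6 genes in alpha cells. The region chr13:72628153-72629684 spans its annotated start and that of Gm20554, a noncoding gene on the opposite strand, so the openness cannot be given to one of the pair. Percentiles were 97.4 and 98.4 in alpha, 7.93, 80.9, and 91.8 in beta, and 89.5 and 84.2 in delta. Peaks were called in all 7 libraries, and the alpha libraries were the highest.

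The fold enrichment at the Irx2 start was 8.99 and 10.7 in alpha, 1.79, 4.76, and 8.78 in beta, and 6.58 and 7.56 in delta. The -log10 q was 28.7 and 47.7 in alpha, 0.08, 3.58, and 10.9 in beta, and 10.2 and 10.8 in delta. Beta 3 thus came close to alpha 1 by fold enrichment and lay above both delta libraries, while beta 1 was weakest. The percentiles of the cell types did not separate in the exact permutation test (p = 0.533).

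The Irx2 downstream region at 10.9 kb, chr13:72639359-72640443, is intergenic. Its fold enrichment was 7.98 and 7.75 in alpha, 2.70 and 3.39 in beta 1 and beta 2, and 6.48 and 4.11 in delta, and beta 3 had no peak. The -log10 q was 11.9 and 13 in alpha, 1.1 and 1.82 in beta, and 7.76 and 2.59 in delta. Alpha and delta cells passed the threshold of 2 in every library and beta cells in none, while the percentiles overlapped, with 90.9 in beta 1 (exact permutation p = 0.457). A region 4.7 kb upstream of Irx2 had a -log10 q of 4.04 and 1.93 in delta and 1.1 in beta 1 and no peak in alpha cells.

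Irx4 had almost no open chromatin at its start, where a peak was called only in beta 1 (percentile 84.9, -log10 q 0.82). The region 20980 bases upstream, chr13:73239385-73239605, had a peak in all 7 libraries, with the same first and last base in each list. Such exact sharing was uncommon, with 521 to 1211 intervals shared between any 2 lists, and its cause here was not tested. The fold enrichment of the region was 4.93 and 9.38 in alpha, 6.56, 5.93, and 6.92 in beta, and 7.88 and 5.89 in delta. Its -log10 q was between 3.92 and 12.7. By fold enrichment the 2 alpha libraries were the lowest and the highest, so the spread within alpha cells covered all other libraries (exact permutation p of the percentiles = 0.39).

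Other regions of the Irx4 window were less regular. The region 9.04 kb upstream had percentiles of 79.7 and 60.1 in alpha, 48.1 in beta 1, and 24.1 in delta 2. The region 11.6 kb downstream of the start, near the start of Gm48000, was found in alpha 2, beta 1, and both delta libraries, with a -log10 q of 3.15, 2.44, 2.98, and 1.93. The region at 49.8 kb had a -log10 q of 5.64 and 2.91 in delta and 1.1 and 1.43 in beta 1 and beta 3, with no peak in alpha cells.

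On chromosome 8 the strongest region lay 1.41 kb upstream of Irx5. The interval chr8:92355674-92356553 covers the start and an exon of Crnde, a noncoding gene that runs in the opposite direction, and lies outside the 1 kb used for the Irx5 start. Fold enrichment was 10.4 and 11.2 in alpha, 6.52, 6.85, and 8.33 in beta, and 14.7 and 9.13 in delta. The -log10 q was 18.3 and 24.2 in alpha, 6.27, 6.9, and 10.1 in beta, and 39.1 and 13.7 in delta.

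All 7 libraries passed the threshold of 2 there, and the fold enrichment of every beta library lay below that of every alpha and delta library. The share of all regions with this order is not given here, and the part of depth in it was not tested. By percentile beta 1 was the highest, at 98.4. The percentiles were between 87.9 and 98.4 and did not separate the cell types (exact permutation p = 0.905). Irx5 had no TSS peak within 1 kb in any library, and the Crnde region was the one region of its window that was found in 2 libraries or more.

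Peaks at the start of Irx3, a factor known from limb and heart patterning, were weak and irregular. A peak was called in alpha 1 (percentile 59.3) and in the 3 beta libraries (48.1, 12.5, and 1.16), with a -log10 q of at most 1.86, and in neither delta library. The antisense gene Irx3os overlaps the start, and peaks do not tell the 2 genes apart. The region 46.9 kb downstream of the start had a -log10 q of 0.28 in alpha 1 and 3.04 in beta 2, and the region at 4.33 kb had 0.08 in beta 1 and 0.95 in delta 1.

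Irx6 had 3 regions, none of which reached a -log10 q of 2 in any library. The region at 47.5 kb had percentiles of 42.4 and 36.6 in alpha and 35.2 in delta 2 and the lowest p of all 27 regions (exact permutation p = 0.0667, adjusted p = 0.845). The region in its exon at 4.3 kb had percentiles of 45.3 in beta 3 and 37.8 and 35.2 in delta. The region at 19.8 kb was found in beta 1 and beta 3 alone, at 48.1 and 45.3, and was the one region present in 2 beta libraries and absent from both other cell types. At the start of Irx6 a TSS peak was called only in beta 2 (percentile 22.2, -log10 q 1.27).

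**Figure D3:**
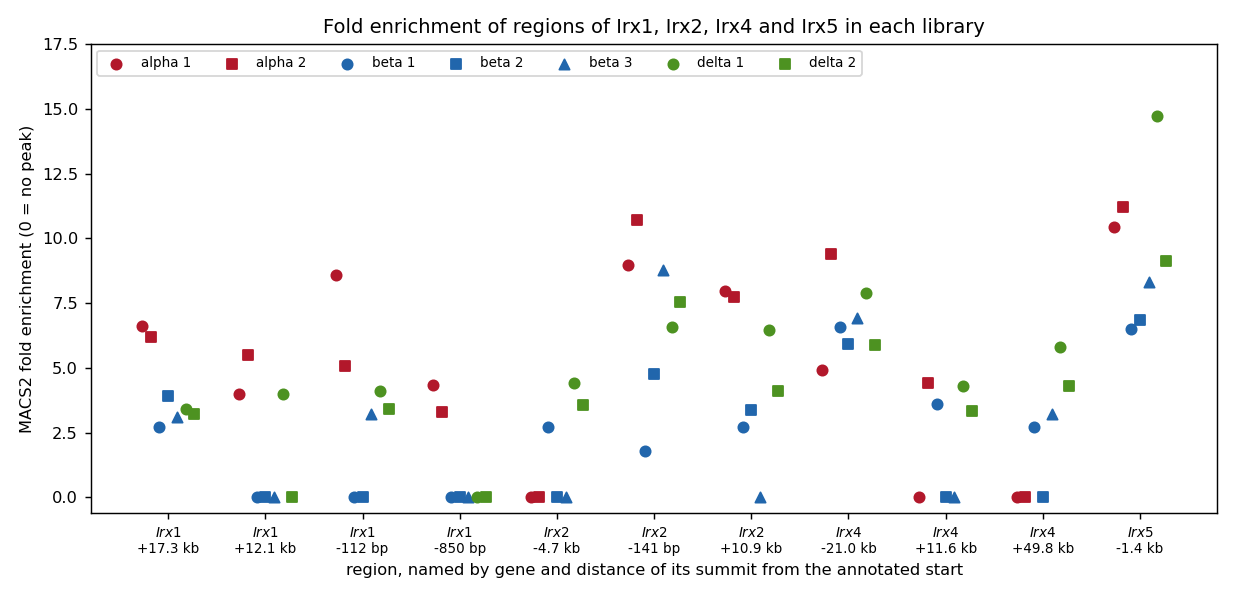
MACS2 fold enrichment in each library (red alpha, blue beta, green delta, with circle, square, and triangle for replicates 1, 2, and 3, and 0 for no peak) of the named regions of Irx1, Irx2, Irx4, and Irx5 that reached a -log10 q of 2 in at least 1 library, ordered along the chromosomes. Alpha points are the highest at the tandem repeat and the start of Irx1 and are both the lowest and the highest 20980 bases upstream of Irx4, while delta 1 is highest at Irx5 with 14.7.

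Counted over the family, a TSS peak in at least 2 libraries of a cell type was found for 2 of 6 genes in alpha (Irx1 and Irx2), compared with 56.8% of all protein-coding genes. In beta cells there were 2 (Irx2 and Irx3), compared with 56.1%, and in delta cells 2 (Irx1 and Irx2), compared with 54.1%. With a -log10 q of 2 or more the counts were 2, 1, and 1, compared with 51.4%, 41.4%, and 48.3% of all protein-coding genes, and Irx2 was in each of them. Irx5 was the one gene without a TSS peak in any library, as were 17.3% of all protein-coding genes.

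For each pair of cell types, a region was called selective when it had a peak in at least 2 libraries of one type and in none of the other. Of the 27 regions 3 were present in alpha and absent from beta (5.41% of all regions were), of which 2 belong to Irx1 and 1 to Irx6. Present in alpha and absent from delta were 2 (5.38% of all regions), 1 at Irx1 and 1 at Irx3. Present in beta and absent from alpha were 2 (14.8% of all regions), 1 at Irx4 and 1 at Irx6, and present in beta and absent from delta were 2 (13.2% of all regions), 1 at Irx3 and 1 at Irx6. Present in delta and absent from alpha were 3 (5.13% of all regions), 1 each at Irx2, Irx4, and Irx6. No region was present in both delta libraries and absent from beta (4.85% of all regions).

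These counts are small and moved with single libraries. The share of all regions was not counted with a library left out, so these shifts are not set against it. Without beta 1 the regions present in alpha and absent from beta were 5, and without beta 1 or beta 3 none was present in beta and absent from alpha. Without delta 2 the regions present in alpha and absent from delta were 4, and without either delta library the regions present in delta and absent from alpha were 6. Within the lane that alpha cells shared with beta 1, 4 regions were present in both alpha libraries and absent from beta 1 (8.53% of all regions were). The reverse held for 5 (25.5% of all regions), a count that rests on the beta 1 list alone. Within the other lane 1 region was present in beta 2 and beta 3 and absent from delta (1.93% of all regions), and the reverse held for 2 (9.18% of all regions). Regions present in all 7 libraries numbered 4 of 27, compared with 13.3% of all regions, and were the tandem repeat at Irx1, the Irx2 start, the region 20980 bases upstream of Irx4, and the Crnde start near Irx5.

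Most other genes of the TALE superclass were open at their starts. Of 12 such genes 10 had a TSS peak in at least 2 alpha libraries, 9 in beta, and 11 in delta, compared with 56.8%, 56.1%, and 54.1% of all protein-coding genes. With a -log10 q of 2 or more the counts were 9, 8, and 9, compared with 51.4%, 41.4%, and 48.3%. Meis1, a cofactor of homeodomain proteins, had percentiles between 92.7 and 99.7 in all 7 libraries. Pbx2 had a TSS peak in the alpha libraries alone, at 77.7 and 66.8.

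Of 11 islet transcription factor genes, 11 had a TSS peak in at least 2 alpha libraries, 10 in beta, and 11 in delta, compared with 56.8%, 56.1%, and 54.1% of all protein-coding genes. With a -log10 q of 2 or more the counts were 11, 8, and 10, compared with 51.4%, 41.4%, and 48.3%.

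The 300 bases at the summit of each region were searched on both strands for 5 short motifs. The Iroquois palindrome ACANNTGT was found in 2 of 27 regions (7.41%), compared with 11.6% of all regions, and the MAF motif TGCTGA in 6 (22.2%), compared with 25.4%. The NEUROD1 E-box CAGATG, which can overlap the Iroquois palindrome, was found in 5 (18.5%), compared with 25%. The forkhead motif TGTTTAC and the homeodomain core TAATTA were found in none, compared with 6.7% and 8.19%. Of the sequences shown, CAGATG is found in the start region of Irx2 and in the Irx1 region at 12.1 kb, and TGCTGA is found 2 times in the Irx2 downstream region and once each in the Irx4 and Irx5 upstream regions.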

How the data were processed

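ATAC-Seq peak lists of 7 libraries of sorted alpha, beta, and delta cells were used. The authors used Trimmomatic for trimming, Bowtie 2 for alignment to mm10, and Picard for duplicates, and ran MACS2 separately on every library. Versions and the MACS2 threshold are not given in the sources used here, and the lowest -log10 p in each list was 2.01. The deposited -log10 p, -log10 q, fold enrichment, and score (within 1 of 10 times the -log10 p) come from the reads of that library alone, so library depth bears on which weak sites are called.

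Rows that repeat an interval were counted once. Peaks sharing 1 bp or more were joined, and regions of at least 2 libraries were kept. Genes are from GENCODE vM21 and sequences from GRCm38.p6. Peak lists hold no reads per region for the study's own test, so presence, percentile, and window density were compared by exact permutation over the libraries, with a smallest p of 0.00952. Regions named are the 3 of highest mean percentile in each window, those selective against both other cell types, and those with an unadjusted p of at most 0.05, of which 1 at Irx3, like some genes, is not reported here. The regions ranked highest in alpha were named after their values were seen. The members, gene lists, and tests were chosen with earlier results of these data known, and capitals in the sequences were given to CpG in place of motifs after the matches were seen.

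Python 3.11.15, numpy 2.4.6, pandas 2.3.3, scipy 1.17.1, pysam 0.24.0, and matplotlib 3.10.9 were used, and merging was checked against bedtools 2.31.1. The alternatives are given with their effect in the closing part.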

Additional observations from a re-analysis of the deposited data

How the results depend on the processing

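No protein-coding gene and no region had an adjusted p of at most 0.05 in the exact permutation tests under any alternative run. The smallest p with all 7 libraries is 0.00952, so passing would need a large share of genes or regions near it. The absence of calls was thus nearly set by the design and says little about robustness. With a -log10 q of 2 or more the distinct peaks in the windows were 54 in place of 257, and with 100 kb on each side they were 484. Counts of selective regions were small and moved under most settings. The share of all regions was counted within a lane and is unchanged by the 100 kb windows. It was not counted for the other peak settings or with a library left out, so those shifts are not set against it. Regions present in beta were 0 against alpha and 0 against delta with a -log10 q of 2 or more, 1 and 1 in the 50000 strongest peaks of each list, 1 and 1 with at least 0.5 of a region covered, 4 and 6 with 100 kb windows, and 5 and 1 within a lane. Regions present in delta and absent from alpha were 1 with a -log10 q of 2 or more and 1 in the 50000 strongest peaks. Those present in delta and absent from beta were 2 with a -log10 q of 2 or more, 2 with 100 kb windows, and 2 within a lane. Those present in alpha and absent from beta were 5 with at least 0.5 covered. Alpha and delta cells share no lane. With one library left out, the regions present in alpha were 3 to 5 against beta and 2 to 4 against delta, those in beta 0 to 3 against alpha and 0 to 2 against delta, and those in delta 3 to 6 against alpha and 0 to 2 against beta. Regions ranked highest in alpha were 5 to 8, and genes or regions past adjustment 0 to 0. The Irx genes with a TSS peak in at least 2 beta libraries were 4 with a 3 kb window, and with a -log10 q of 2 or more they were 1 in beta and 1 in delta. The causes were not tested, and depth limits which weak peaks were called in each list.

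The unadjusted p of Irx2 was 0.486 in the 50000 strongest peaks. It was 0.0667 without beta 1, without beta 2, and without beta 3. That is the smallest p that 2 libraries in each cell type can give, so these fits could not reach 0.05 and decide nothing. A fit without an alpha or a delta library leaves a single library in that cell type, and its p is not read here. The unadjusted p of Irx4 was 0.0286 with 100 kb windows. The deviations of libraries with the same replicate number had correlations of -0.0552 to 0.0873 over 133698 regions. With 2 libraries in a cell type these deviations are mirror images, as with -0.0552 for alpha 1 and delta 1 and 0.0552 for alpha 1 and delta 2. The correlations therefore cannot decide whether the numbers pair the samples. With the replicate number as a block the p of Irx2 was 0.0556, the smallest this block allows, with 0 genes past adjustment.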

Other observations

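The gene windows leave out 1090 of the 1410 kb from the first to the last window of the chromosome 13 cluster and 654 of the 982 kb of the chromosome 8 cluster. These stretches held 62 and 16 further regions of at least 2 libraries, and they were looked at after the data were seen. The region of highest -log10 q lay 180 kb upstream of Irx2 (chr13:72448453-72449197), with percentiles of 99.5 and 99.5 in alpha, 98.9, 41.7, and 96.6 in beta, and 99.9 and 99.2 in delta. Its -log10 q was 58.0 and 71.1 in alpha, 8.79, 1.82, and 23.3 in beta, and 105 and 60.3 in delta. Both values in alpha and both in delta lay above all in beta, and delta 1 was the highest (exact permutation p of the percentiles = 0.6). How many of all regions have this order was not counted, and the part of depth in it was not tested. The region of highest mean percentile lay 110 kb downstream of the start of Irx2 (chr13:72737983-72738744), with 91.6 and 91.1 in alpha, 96.1, 93, and 80.2 in beta, and 94.7 and 94.3 in delta (exact permutation p = 0.905).

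On chromosome 13 both alpha libraries ranked above every other library in 7 of the 62 regions, all beta libraries in 0, and both delta libraries in 6, compared with 5.53%, 2.59%, and 4.5% of all regions. On chromosome 8 the counts were 0, 1, and 1 of 16. In both stretches together 6 of the 78 regions had an unadjusted p of at most 0.05, compared with 3.99% of all regions, and no region in the genome passed adjustment. These 6 follow. The region 296 kb downstream of the start of Irx2 (chr13:72924551-72925294) had percentiles of 77.6 and 66.5 in alpha, 48.1, 0, and 45.3 in beta, and 96.6 and 91.9 in delta (exact permutation p = 0.0286, unadjusted). The region 263 kb upstream of Irx2 (chr13:72365918-72366279) had percentiles of 95.1 and 69.5 in delta and 22.9 in alpha 1 and no peak elsewhere (exact permutation p = 0.0381, unadjusted). The region at 199 kb (chr13:72827543-72827938) had percentiles of 85.3 and 66.2 in delta and 36.6 in alpha 2 and no peak elsewhere (exact permutation p = 0.0381, unadjusted). The region at 189 kb (chr13:72817966-72818353) had percentiles of 82.3 and 71.9 in alpha and 91.7 and 60 in delta and no peak in beta (exact permutation p = 0.0286, unadjusted). On chromosome 8 the region 190 kb upstream of Irx3 (chr8:91991390-91991962) was found in both alpha libraries (79.7 and 75.0) and both delta libraries (79.7 and 76.7) and in no beta library (exact permutation p = 0.019, unadjusted). The region 87.2 kb downstream of the start of Irx5 (chr8:92444602-92445037) was ranked higher in all beta libraries, with 90.9, 72.1, and 64.4, against 11.8 and 8.94 in alpha and no peak in delta. Its exact permutation p of 0.00952 is the smallest that these 7 libraries can give, and its -log10 q in beta was 1.1, 2.9, and 2.13.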
